A study of Trachinotus blochii with 12 samples.

Results

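The gene models described here are those listed higher in liver of hypoxia-tolerant golden pompano while their brain values stayed nearly level, 159 of 18490 gene models in all. Golden pompano (Trachinotus blochii) is a marine food fish, and the study asked how fish that withstand acute low oxygen differ in liver and brain mRNA from fish that do not. The Tol fish still behaved normally after 24 h at 0.9 mg/L dissolved oxygen, and the Intol fish had lost balance and were dying within 1 h. All were 2 months old, fasted during the experiment, came from 3 tanks and had gone through the same lowering of oxygen, and no fish held at normal oxygen was analysed here. Each status was sequenced as 3 liver and 3 brain libraries, 12 in all. Each tank held 80 fish, and 14 per tank were sampled for each status, 42 per status. No label tells whether a library is 1 fish or a pool, or from which tank, so p-values measure only the spread between these libraries. Status and 23 h more hypoxia and fasting cannot be told apart in any Tol-against-Intol value, and the Intol fish were also sampled while dying.

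As background, the liver of a fish stores glycogen and fat, releases glucose to the blood and makes most plasma proteins, so it is the tissue from which fuel is drawn when oxygen runs short. Brain has small fuel stores of its own and depends on glucose from the blood. Low oxygen stabilises the hypoxia-inducible factors, which raise transcription of genes for glycolysis, glucose transport and oxygen supply in many vertebrate tissues. The files do not pair any gene model with a gene name, so no member is given a function here, pathways and cell type markers were not looked up, and the tissue labels were not checked by markers. A library comes from whole tissue, where more cells of a type and more RNA per cell cannot be told apart.

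The values are the authors' deposited levels per gene model, whose unit is not named and which were read as FPKM, and the sequencing depth behind them is unknown. The members were chosen from these same values. The liver difference is the mean log2(value + 1) of Tol minus that of Intol libraries, and the brain difference is the same in brain. Of the 9109 gene models that reached a value of 1 in 3 or more liver libraries, called tested in liver below, 239 had a liver difference of at least 1, which is 2.62%. In 212 of them all 3 Tol liver values also lay above all 3 Intol liver values, a separation found in that direction for 12.3% of the 9109. An absolute brain difference below 0.25 left 174, and limits of 400 on the liver mean and 200 on the brain mean left 159. The opposite selection, with the same limits and the liver difference at -1 or lower, held 621 gene models. This imbalance depended on the scaling of the libraries. After median-ratio scaling within each tissue the same conditions gave 253 gene models higher and 395 lower in Tol liver, and after quantile normalization 281 and 335. The median liver difference of all 9109 gene models was -0.20 as deposited, -0.03 after median-ratio scaling and 0.02 after quantile normalization. Both scalings raised the median liver difference of the members, from 1.36 to 1.55 and 1.59. All 159 members therefore stayed at a liver difference of at least 1, with a lowest value of 1.13 and 1.12, which is no check on their choice. The full set of conditions was met by 156 and 155 of the members under these scalings.

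Because the liver contrast chose the members, its values are given as a description and nothing is drawn from them. The liver differences ran from 1.00 to 7.66 with a median of 1.36. They were below 1.5 in 96 members, from 1.5 to below 2 in 38, from 2 to below 3 in 21, and at least 3 in 4. The mean value in Tol liver was below 10 in 46 members, from 10 to below 100 in 84, and at least 100 in 29. Over members, the mean value ranged from 2.49 to 585 in Tol liver and from 0.360 to 250 in Intol liver, with medians of 23.9 and 7.82. In 49 members even the lowest Tol liver value was at least 2 times the highest Intol value. No share over the 9109 gene models was counted beside this number, so it is not read as a trait of the members. In the fit over all 9109 gene models (limma), 156 of the 159 members were among the 682 called higher in Tol at a Benjamini-Hochberg adjusted p under 0.05 (7.49%), and 0 were among the 2699 called lower (29.6%). At the liver threshold, the 3 members just inside had a liver difference of 1.002 each, and the 3 gene models just outside that met every other condition had 0.999, 0.997 and 0.995.

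**Figure D1:**
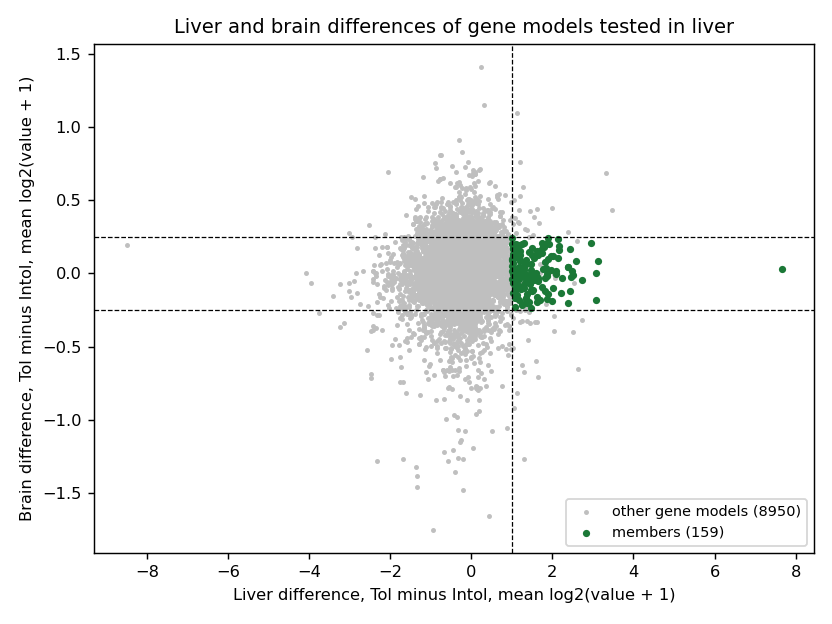
Each point is 1 of the 9109 gene models tested in liver, with its Tol-minus-Intol difference of mean log2(value + 1) in liver on the x axis and in brain on the y axis, and dashed lines mark the limits of 1 and ±0.25. The 159 members (green) lie in the band to the right of the liver limit, mostly below 3, with a single member far to the right at 7.66.

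The members made up a small share of each library, and the share was larger in Tol liver. They held 2.24%, 2.07% and 1.59% of the summed values in Tol livers 1 to 3, against 0.622%, 0.737% and 0.501% in Intol livers 1 to 3. In brain they held 0.886%, 0.885% and 0.857% in the Tol libraries, against 0.870%, 0.988% and 0.803% in the Intol libraries. The liver groups do not overlap, as the choice of members fixed, and the Tol brain values lie inside the range of the Intol brain values. Every member reached a value of 1 in each Tol liver library, which the minimum value and the separation of the groups fixed. In Intol livers 1 to 3, 145, 151 and 137 of them did so. No share over all gene models was counted beside these numbers, so nothing is read from them. The median member stood at 27.65, 24.22 and 17.45 in the Tol livers and at 7.29, 10.25 and 5.30 in the Intol livers.

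The largest liver difference belonged to Trachinotus_GLEAN_10013991. Its values were 228.53, 716.75 and 102.57 in Tol livers, against 0, 1.08 and 0 in Intol livers. It was at 0.06 or below in all 6 brain libraries, so the value was near 0 outside Tol liver, and the 3 Tol livers themselves spread widely. The gene model with the next number showed the reverse, with 0 in each Tol liver, against 366.65, 296.41 and 433.15 in Intol livers. The means of the summed pair were 349 in Tol and 366 in Intol liver. The sequences of the pair were not used here, so reads that could fit both models cannot be told apart and both values are uncertain.

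The members ranked 2 and 3 by liver difference were abundant in both liver groups and practically missing from brain. The member ranked 2 had 507.98, 316.44 and 222.59 in Tol livers, against 38.60, 73.06 and 17.29 in Intol livers, and was at 0 in 5 brain libraries and at 0.20 in Tol brain 1. The member ranked 3 had 529.25, 378.08 and 273.67 in Tol livers, against 54.14, 94.94 and 16.17 in Intol livers, and was listed at 0 in every brain library, the only member to be so. In both, library 1 was the highest of the Tol livers, library 2 the highest of the Intol livers, and library 3 the lowest of each group. Their liver differences were 3.13 and 3.08.

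Ranks 4 to 6 were members that brain also listed at intermediate levels. The member ranked 4 had 85.93, 87.93 and 69.17 in Tol livers, against 8.10, 19.70 and 3.78 in Intol livers, while its 6 brain values lay between 15.96 and 20.80. The member ranked 5 had the tightest Tol livers of the top 10, with 21.72, 23.04 and 23.92, against 1.80, 3.07 and 1.57 in Intol livers, and brain values between 2.12 and 5.19. The member ranked 6 had 391.99, 298.34 and 161.08 in Tol livers, against 33.98, 75.03 and 24.13 in Intol livers, and brain values between 34.64 and 53.84. For these 3 members every brain value lay below every Tol liver value. The brain mean stood above the Intol liver mean for ranks 4 and 5, and near it for rank 6, at 42.0 against 44.4.

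Ranks 7 to 10 differed in where brain stood. The member ranked 7 had 496.50, 483.63 and 299.21 in Tol livers, against 60.81, 71.42 and 73.39 in Intol livers, and brain values between 13.83 and 16.88, below every liver library. The member ranked 8 had 51.25, 49.89 and 27.16 in Tol livers, against 7.29, 9.62 and 3.65 in Intol livers, and brain values between 29.77 and 41.42, all above the Intol livers. The member ranked 9 had 10.38, 16.08 and 10.50 in Tol livers, against 1.07, 1.59 and 1.34 in Intol livers, and brain values between 13.01 and 14.95. For ranks 8 and 9, then, Tol liver lay near the level of brain and Intol liver far below it. The member ranked 10 was low throughout, with 9.54, 5.09 and 8.55 in Tol livers, against 0.17, 1.30 and 0.38 in Intol livers, and brain values between 0.56 and 2.18.

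**Figure D2:**
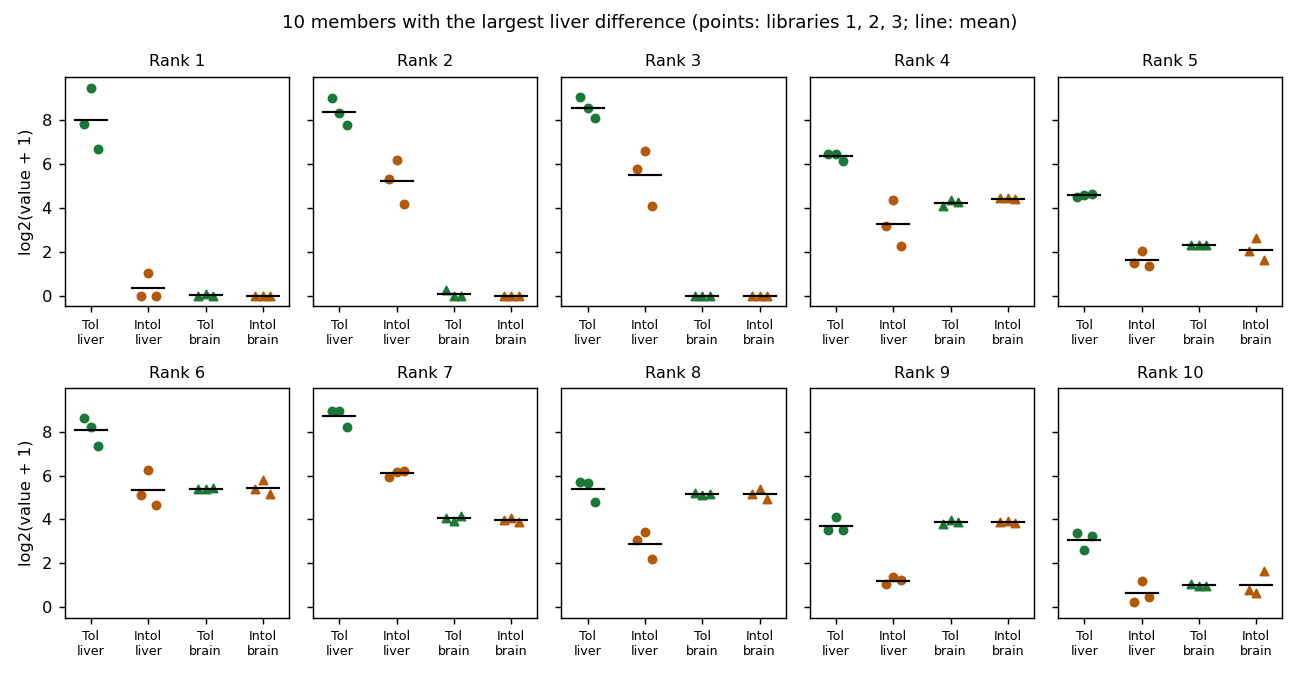
Values of the 10 members with the largest liver difference, as log2(value + 1), in liver (Tol left of Intol) and in brain (Tol left of Intol). Points are libraries 1 to 3 from left to right and lines are group means. All of them have Tol livers above Intol livers by choice, while brain ranges from 0 (rank 3) to the level of Tol liver (rank 9).

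The most abundant members were mostly not those with the largest differences. Trachinotus_GLEAN_10001202 had the highest mean in Tol liver and ranked 17 by liver difference. Its values were 687.87, 415.34 and 651.30 in Tol livers, against 128.34, 265.40 and 52.99 in Intol livers, a liver difference of 2.22 ± 0.58 (SE). Its place among the calls in liver (limma, adjusted p = 0.0274) was lost when Tol liver 1, Tol liver 2, Tol liver 3 or Intol liver 1 was left out, with adjusted p of 0.133, 0.0501, 0.0714 and 0.0651. In brain it had 167.26, 138.67 and 156.26 in the Tol libraries, against 164.53, 233.04 and 125.09 in the Intol libraries. It was thus abundant in both tissues, its brain groups overlapped, and Intol library 2 was the highest and Intol library 3 the lowest of their group in liver and in brain alike.

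The member second in Tol liver mean was nearly absent from brain, at 694.16, 521.69 and 448.09 in Tol livers, against 266.33, 235.79 and 197.41 in Intol livers, and between 0.30 and 0.73 in brain. The third had 549.21, 463.62 and 550.36 in Tol livers, against 281.33, 247.67 and 219.79 in Intol livers, and 17.08 to 22.76 in brain. The fourth had 273.16, 710.64 and 519.20 in Tol livers, against 74.38, 205.76 and 179.21 in Intol livers, with library 1 the lowest of both groups, unlike most members. The fifth was the member ranked 7 above. Comparing levels between members takes the values as scaled by gene length, which the files do not state.

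Most members shared an order of the libraries within each liver group. No condition of the rule named such an order, but it was read from the liver values that chose the members. All tested gene models were not chosen in this way, so the shares below are a description and not like for like. Members share these 6 libraries, so their counts are not independent observations. Library 1 was the highest Tol liver for 118 of 159 members (74.2%) and library 3 the lowest for 116 (73.0%). Among all 9109 gene models tested in liver these shares were 35.7% and 49.5%. Library 2 was the highest Intol liver for 123 members (77.4%) and library 3 the lowest for 121 (76.1%), against 23.1% and 32.6% of all tested gene models. Both orders at once, Tol 1 above 2 above 3 and Intol 2 above 1 above 3, were found in 65 members (40.9%) and in 7.42% of the tested gene models. The lowest Tol liver and the highest Intol liver, which bound the gap between the groups, were Tol 3 and Intol 2 in 92 members. No share over the 9109 gene models was counted beside this number, so it is not read as a trait of the members.

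The spread within liver groups was wider for the members than for all tested gene models. The median SD of log2(value + 1) was 0.33 among Tol livers and 0.37 among Intol livers, against 0.16 and 0.18 over all tested gene models. In brain the spread was close to that of the rest, with a median SD of 0.09 among Tol and 0.12 among Intol libraries, against 0.08 and 0.11. The sets were not matched for level, and the liver values are those that chose the members. In Tol liver 1 the median value was 27.65 for members and 3.64 for all tested gene models. In Intol liver 1 it was 7.29 and 4.55, and in Tol brain 1 it was 8.41 and 10.47. The pseudocount understates changes of low gene models, so the wider liver spread is not read as a trait of the members. Among the members, the median deviation from the group mean was 0.23 in Tol liver 1 and -0.29 in Tol liver 3, and 0.30 in Intol liver 2 and -0.31 in Intol liver 3. For all tested gene models these 4 medians were 0.01, -0.05, -0.05 and 0.02. The 621 gene models of the opposite selection leaned the other way in Intol liver, with a median deviation of -0.14 in library 2 and 0.22 in library 3. By these medians Intol liver 2 stood nearest to the Tol livers and Intol liver 3 farthest in both selections. The selection itself moved with these libraries, since 225 gene models met the conditions without Intol liver 2 and 123 without Intol liver 3. What sets these livers apart was not tested.

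**Figure D3:**
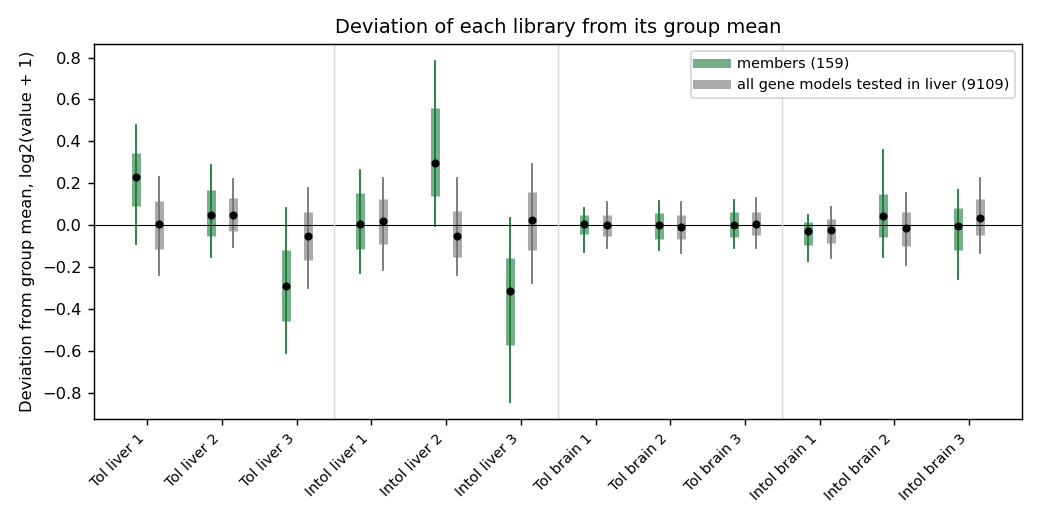
Deviation of each library from the mean of its group on the log2(value + 1) scale, for the 159 members (green) and for all 9109 gene models tested in liver (grey). Dots are medians over gene models, thick bars interquartile ranges and thin lines the 10th to 90th percentiles. Members lie high in Tol liver 1 and Intol liver 2 and low in both libraries 3 of liver, while the grey medians stay near 0.

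Intol brain 3 stood apart from the other brains, with correlations of 0.982 to 0.987 to them over all gene models, against 0.989 to 0.994 among the other 5. Without that library 154 gene models met the conditions, 145 of them members, and 0 members were called in brain. Part of the order of the Intol livers was also seen in brain, at a smaller size. Of the 135 members that reached a value of 1 in 3 or more brain libraries, 86 (63.7%) were higher in Intol brain 2 than in Intol brain 3, against 40.3% of 8464 gene models that passed that minimum in both tissues. The difference between Intol libraries 2 and 3 on the log2 scale in liver correlated with the same difference in brain at r = 0.351 over the 135 members and at r = 0.147 over the 8464 gene models. The median of Intol library 2 minus 3 was 0.61 in liver over the 159 members and 0.10 in brain over the 135. In brain it was -0.05 over the 8464 gene models. All points share the same 4 libraries, and gene models are not independent, so these are descriptions. In 24 of the 135 members Intol brain 2 was the highest and Intol brain 3 the lowest of the 6 brain libraries. The share over all gene models was not counted, so this number is not read as a trait of the members. The clearest case was the member ranked 29 by liver difference, which had 42.94, 42.33 and 38.10 in Tol brains, against 33.80, 55.27 and 24.06 in Intol brains. Its liver values were 125.94, 113.14 and 77.09 in Tol, against 25.87, 41.47 and 17.16 in Intol. For such members a small brain difference is an average over Intol brains that stood on both sides of the Tol brains.

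In brain, none of the 135 members that could be tested was called between Tol and Intol (limma, adjusted p under 0.05), and 8 (5.93%) had an unadjusted p under 0.05. The background was 3 calls among 14146 gene models, or 0.0212%, and 2405 (17%) at an unadjusted p under 0.05. The rule's limit on the brain difference itself holds the members' count down. The brain differences of the 159 members ran from -0.24 to 0.24, as the rule fixed, with a median of 0.02. Near that limit, the 3 members with the largest absolute brain difference had 0.24, 0.24 and -0.24, and the 3 nearest gene models beyond it had -0.25, 0.25 and -0.26. A further 35 gene models met every condition except the one on brain, 19 of them higher and 16 lower in Tol brain. The other 24 members were too low in brain to be tested, so for them a level brain says little about a change.

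The level in liver against brain, averaged over Tol and Intol, was not used by the rule apart from its limits on low and high values, and it was tested over all 12 libraries. The members were split between the tissues. By limma with Benjamini-Hochberg adjustment over 14817 gene models, 83 of 159 members were higher in liver than in brain, 52 were lower and 24 were not called. The background was 13.2% higher and 82.1% lower in liver over all gene models tested, and 21.5% and 71.4% among the 9109 tested in liver. Among the 7586 gene models that met the conditions on minimum value, brain difference and means, whatever their liver difference, it was 19.3% and 74.0%. The median liver-minus-brain difference was 0.59 for the members and -1.19 for those 7586. With all 12 libraries brought to a common scale by median ratios, 120 members were higher and 22 lower in liver, and the medians became 1.77 and -0.08. Under that scaling the background was 28.2% higher and 60.8% lower over all gene models tested, and 40.8% and 44.7% among the 7586. The count of members in each direction therefore depends on how the tissues are scaled. A liver difference of at least 1 on this scale is out of reach for gene models near 0 in liver, so the choice of members also favours higher liver levels. In the opposite selection, which bears the same constraint, 30.9% were higher and 58.6% lower in liver, with a median of -0.52. Its direction reversed on the common scale, to 61.2% higher, 22.4% lower and a median of 0.52.

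**Figure D4:**
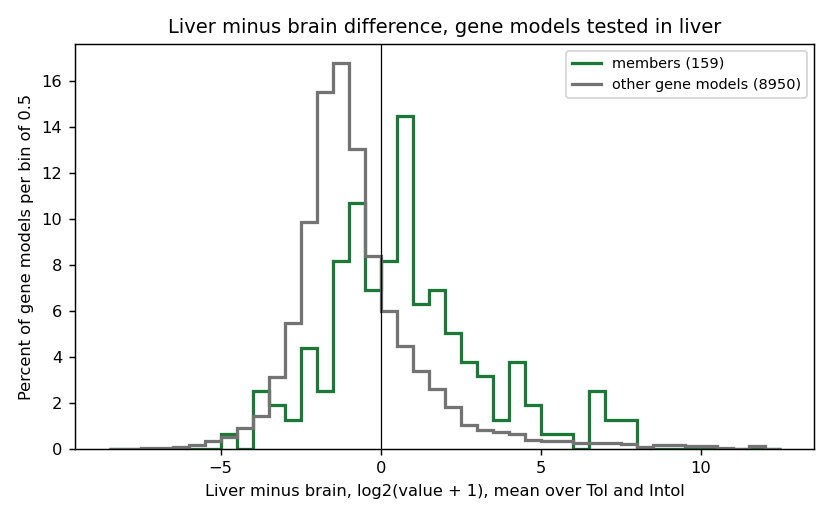
Percent of gene models per bin of the liver-minus-brain difference, the mean log2(value + 1) of liver minus that of brain averaged over Tol and Intol, for the members (green) and the other gene models tested in liver (grey). The members spread from -4.71 to 7.90 with a median of 0.59, and the grey curve peaks below 0.

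At the liver end stood the member second in Tol liver mean. Its mean was 394 ± 195 over the 6 livers and 0.503 ± 0.168 over the 6 brains (SD), a liver-minus-brain difference of 7.90 ± 0.12 (SE, limma, adjusted p = 1.53e-14). The next was the member ranked 158 by liver difference, at 234 ± 125 in liver and 0.0133 ± 0.0327 in brain. This fit shared 1 spread between the tissues, although the members spread more in liver than in brain. SEs and adjusted p-values of liver minus brain are therefore approximate. In all, 22 members (13.8%) had a brain mean below 1, against 7.05% of the gene models tested in liver. The pseudocount shrinks brain differences near 0, which eases the brain limit, and the choice of members favours higher liver levels. These shares are therefore a description and not like for like. In 8 members (5.03%) all 6 brain values lay above the Intol livers and below the Tol livers. Over the 9109 tested in liver this was 0.132%, a share that the separation of the liver groups used by the rule keeps low, so nothing is read from it. One of these 8 had 347.38, 257.03 and 289.87 in Tol livers, against 93.64, 106.32 and 102.01 in Intol livers, with brain between 152.97 and 213.23.

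At the other end, 26 members (16.4%) had all 6 brain values above all 6 liver values, against 62.3% of the gene models tested in liver. That background was not held to the rule's other limits, and both shares rest on the deposited scale of the tissues, so they too are a description. The lowest liver-minus-brain difference was that of the member ranked 47 by liver difference. It had 7.73, 4.72 and 1.12 in Tol livers, against 0.31, 0.66 and 0.32 in Intol livers, while its brain values lay between 60.22 and 79.60. The liver-minus-brain difference was -4.71 ± 0.27 (SE, limma, adjusted p = 4.24e-09). The 83 members higher in liver had median means of 41.4 in Tol and 14.4 in Intol liver and 4.40 in brain. The 52 members lower in liver had median means of 8.34 in Tol and 2.72 in Intol liver and 20.9 in brain. The 24 not called had median means of 21.1 in Tol and 5.81 in Intol liver and 11.3 in brain.

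**Figure D5:**
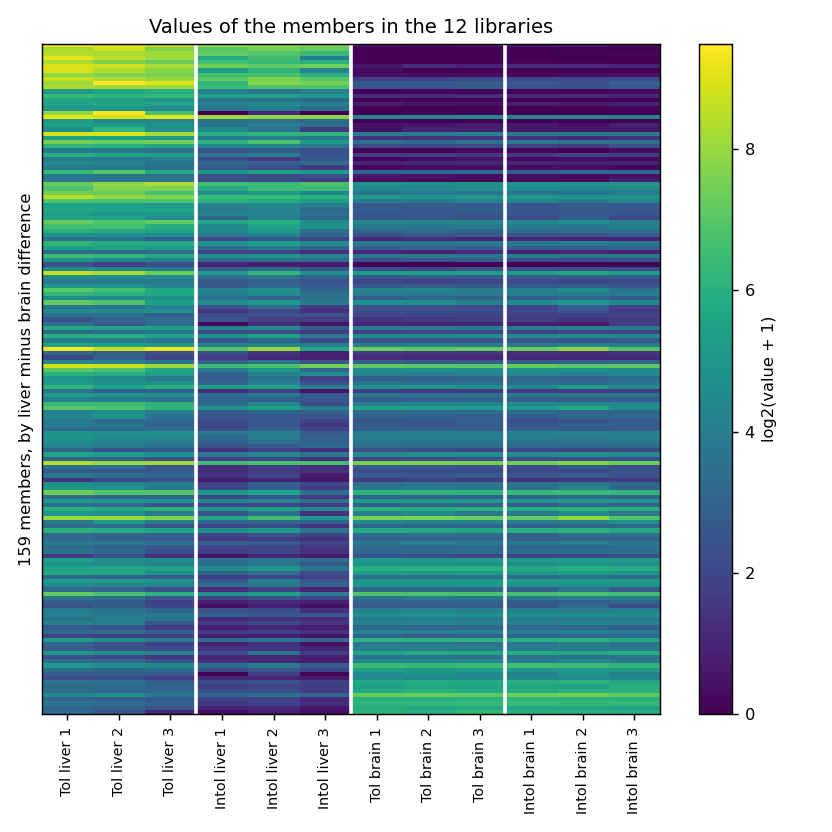
Values of the 159 members as log2(value + 1) in the 12 libraries, with members ordered from the highest to the lowest liver-minus-brain difference. In the top rows brain is dark and both liver groups are bright, and in the bottom rows brain is brighter than both liver groups, while Tol livers are brighter than Intol livers along the whole length by choice.

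Taken by status, the relation between the tissues shifted as the choice of members implies, so these counts are a description. Among Tol libraries 106 of 159 members were higher in liver than in brain and 28 lower (limma), and among Intol libraries 54 of 156 were higher and 66 lower. Over all gene models the background was 12% higher and 83.1% lower among Tol libraries, and 13.5% and 77.9% among Intol libraries. The median liver-minus-brain difference of the members was 1.33 in Tol and -0.36 in Intol fish. For all gene models tested it was -1.68 in Tol and -1.46 in Intol fish. Across both, 54 members were higher in liver in each status and 28 were lower in each, which are 34.0% and 17.6% of members, against 16.1% and 63.6% of the gene models tested in liver. A further 36 (22.6%, against 2.22%) were higher among Tol and not called among Intol libraries, and 3 were higher among Tol and not tested among Intol libraries. The remaining 25 (15.7%, against 1.55%) were not called among Tol and lower among Intol libraries, and 13 (8.18%, against 0.242%) were higher among Tol and lower among Intol libraries.

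Gene model numbers run in sequence, and 12 members (7.55%) formed 6 pairs with consecutive numbers. In the opposite selection 76 of 621 gene models (12.2%) stood in such runs. A larger set holds a larger share in runs by its size alone, and no share was computed for random sets of these sizes. The shares are therefore not compared, and whether runs are particular to the members was not tested. The files do not say whether the numbers follow position in the genome, and reads shared between near-identical models cannot be told apart, so these pairs are uncertain as separate genes. In 1 pair, the members ranked 158 and 104 by liver difference, the first had 291.39, 460.12 and 199.33 in Tol livers, against 126.19, 180.77 and 144.45 in Intol livers. The second had 80.15, 129.98 and 56.51 in Tol livers, against 31.68, 42.90 and 33.61 in Intol livers. Both were highest in library 2 of each group and lowest in Tol liver 3 and Intol liver 1, but their brain means were 0.0133 and 7.93. In another, the members ranked 109 and 124, the first had 155.63, 227.42 and 311.79 in Tol livers, against 94.23, 83.07 and 114.21 in Intol livers. The second had 114.67, 200.43 and 196.55 in Tol livers, against 52.56, 90.52 and 86.46 in Intol livers. Here library 1 was the lowest Tol liver in both, against the order most members followed, and their brain means of 27.3 and 22.9 were similar. For the members ranked 92 and 54, a further pair, Tol liver means were 212 and 11.3, against Intol liver means of 87.7 and 3.07, and brain means were 0.273 and 0.288.

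The 3 members not called higher in Tol liver had narrow gaps between the groups or a wide spread within them. A narrow gap alone did not set them apart from called members. The member ranked 158 was called (limma, adjusted p = 0.0294) with 199.33 in Tol liver 3 and 180.77 in Intol liver 2. Of the 3 not called, values were as follows. The one ranked 28 had 25.75, 74.69 and 23.85 in Tol livers, against 21.28, 11.21 and 2.12 in Intol livers. Its values spread widely within both groups, and the SE of its liver difference was 0.83, against a median of 0.25 over the members. The others, ranked 110 and 141, had highest Intol values of 42.87 and 40.60, just under their lowest Tol values of 45.43 and 44.17.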

How the data were processed

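Per the labels' protocols, liver and brain mRNA gave 125-bp read pairs, which were cleaned and put together with Trinity. The aligner, counting tool, genome build and scaling are not given in the sources used. The deposited values, 1 per gene model and library, carry no named unit and were read as FPKM (fragments scaled to gene length and sequencing depth), since they hold decimals and sum to between 360680 and 622240 per library. TPM over part of the genes cannot be told apart from this. Whole-read steps were looked for, but in log2 ratios of low values between libraries no 0.02-wide bin held more than 6.18% of gene models, so the depth is unknown and no counting interval is given. A further block in the Intol brain 2 file, 1 column of values headed as Intol brain 1, equalled that library's own values and was not used.

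Fits used limma 3.58.1 (run under R 4.3.3) on values as log2(value + 1), with a variance trend and robust moderation, on gene models that reached a value of 1 in 3 or more of the fitted libraries. Calls had a Benjamini-Hochberg adjusted p under 0.05 over all gene models fitted. The pseudocount of 1 understates the change of low gene models. Liver and brain were fitted apart for Tol minus Intol, and all 12 libraries with 4 group means, sharing 1 spread, for liver minus brain. The fits were tested on simulated data. Tables and figures used Python 3.11.15, pandas 2.3.3 and matplotlib 3.10.9.

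The members and all settings were chosen with earlier results of these data known, and the counts of library order, of consecutive numbers, of tissue classes and of calls by status were added after the values were seen. IDs are printed for the member with the largest liver difference and for the one with the highest Tol liver mean. Others are given by rank (1 to 10 in liver difference, 1 to 5 in Tol liver mean), at the thresholds, or as examples chosen after their values were seen. Alternatives were other scalings, pseudocounts, filters and limits, limma without trend and robust options, the replicate number as a block, and each library left out.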

Additional observations from a re-analysis of the deposited data

How the results depend on the processing

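The number of gene models that met the conditions was 159 as reported and 253 after median-ratio scaling within each tissue, 281 after quantile normalization and 89 with a pseudocount of 5, where 156, 155 and 82 of the members were among them. It was 63 with a liver difference of at least 1.5, 243 with at least 0.8, and 83 with an absolute brain difference below 0.1. With each library left out it ran from 123 (without Intol liver 3, 119 of them members) to 225 (without Intol liver 2, 155 of them members). The count of members higher in liver than brain was 54 in the 6 Intol libraries alone. The count lower in liver was 22 with all 12 libraries scaled by median ratios and 28 in the 6 Tol libraries alone. The median liver-minus-brain difference of 0.59 became 1.77 under that scaling and 1.33 in Tol libraries alone, and it reversed to -0.36 in Intol libraries alone, where the liver values that chose the members as low were used. With each library left out it ran from 0.43 to 0.75, and the members higher and lower in liver ran from 79 to 89 and from 50 to 56. Members called higher in Tol liver ran from 121 to 144 of 152 tested when a Tol liver was left out. They ran from 136 to 154 of 159 tested when an Intol liver was left out. Some members thus reached the minimum value only with all Tol livers present. No share over all gene models was counted for these refits. Members called in brain numbered 0 under each alternative run (limma). The limit on the brain difference holds this count down, and the main fit called only 3 of 14146 gene models in brain. The count of 0 is therefore no check on the members. The replicate numbers were not taken to pair the libraries, since the labels do not say so. Over gene models tested in both tissues, same-numbered liver and brain libraries of a status correlated in their deviations at -0.01 to 0.15. Differently numbered libraries correlated at -0.13 to 0.06 there. Over the members the same-numbered correlations were 0.03 to 0.32, against -0.33 to 0.12 for differently numbered libraries. In all, 4 of 6 liver libraries correlated best with the brain library of their own number. These values do not settle whether the libraries are paired. With the replicate block, 152 members were called in Tol liver in place of 156, 0 in brain, and 86 and 53 were higher and lower in liver than brain. The background for liver against brain with the block was 13.3% higher and 82.3% lower over all gene models tested. For Tol against Intol with the block it was not counted. The liver call of Trachinotus_GLEAN_10001202 had an adjusted p of 0.132 with the block (limma), within a range of 0.00452 to 0.133 over its 14 alternatives. The unknown depth limits what can be said of members near 0 in brain.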
